A study of Mus musculus with 4 samples.

Results

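The Rab family of small GTPases was followed in retinas of wild-type C57BL/6 mice at postnatal day 0 (P0). Members were all genes of the count table whose symbol is Rab followed by a number, with or without a letter and a further digit, which gave 59 genes of 52550. The symbols chose them, not the measured values. Retinas were dissociated with papain, and from each of 2 replicates both the starting RNA (input) and the RNA pulled down by an antibody against YTHDF2 (RIP, RNA immunoprecipitation) were sequenced. The groups carried the same genotype, strain, age and tissue and differed only in the pulldown. An IgG control is named in the methods and was not analysed here, so RNA held by YTHDF2 and RNA that stayed with the beads for another reason cannot be told apart. The retina is a mixture of cell types, and fewer cells of a type and less RNA per cell cannot be told apart either. Of the 59 Rab genes, 45 had enough counts to be tested, beside 13632 genes in all.

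Rab proteins are switches of membrane traffic. Bound to GTP they sit on the membrane of a particular organelle and recruit effectors that move, tether or fuse vesicles, and bound to GDP they are taken off the membrane by a carrier protein. Guanine nucleotide exchange factors (GEFs) load them with GTP, and GTPase-activating proteins (GAPs), most of which carry a TBC domain, end the active state. In neurons they carry cargo along axons and dendrites, feed and recycle endosomes, release synaptic vesicles and build cilia. YTHDF2 is a cytoplasmic protein that binds mRNA carrying N6-methyladenosine (m6A) and is best known for speeding the decay of such mRNA. The comparison of RIP with input asks which transcripts are over-represented in the material pulled down with YTHDF2.

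What a Rab protein needs in order to reach a membrane is written at the end of its coding sequence, where codons for cysteine mark the residues that receive a geranylgeranyl lipid. The last 30 bases of the coding sequence, stop codon included, are given for the members on which the results turn, with the cysteine codons in capitals (longest coding transcript in GENCODE M21, GRCm38).
Rab8a: accagcttcttccggTGCagtctcctgtga
Rab8b: accagtttcttccgcTGTtctctgctttga
Rab9: aagcccaagccaaactcatctTGCTGTtga
Rab12: cctcccagaccacacgtccgaTGCTGTtga
Rab5a: ccagccagaagccagTGTTGTagtaactga
Rab5b: cagaacaagagccagTGTTGTagcaactga
Rab5c: gccagccggagccagTGCTGCagcaactga
Rab3a: gcgccacctcatcaggatTGTgccTGCtga
Rab3c: cctccaccacagcccaacTGTggcTGCtaa

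All 59 members had at least 1 cysteine codon among the last 5 codons before the stop, and 50 had 2 or more. In 15 members, *Rab9* and *Rab12* among them, the last 2 codons were both for cysteine. In 20, including *Rab3a* and *Rab3c*, the last codon and the third from last were, and in another 15, including the 3 *Rab5* genes, the pair stood further from the stop. The remaining 9, *Rab8a* and *Rab8b* among them, had a single cysteine codon 4 codons from the end. *Rab8a* and *Rab8b* share this ending and a coding sequence of 624 bases, of which 478 (76.6%) are identical, and their transcripts moved in opposite directions between input and RIP.

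The 4 libraries differed in size and make-up. Inputs held 39499994 and 36236531 counts and RIP libraries 19530226 and 24903212, of which 2083594 to 4175459 fell on protein-coding genes. AY036118 and CT010467.1, which were treated here as ribosomal RNA, together took 55.5% and 55.0% of the input counts and 85.3% and 87.8% of the RIP counts. All 10 retinal ganglion cell (RGC) markers and all 10 retinal progenitor markers had at least 10 counts in every library. So did 7 of 8 photoreceptor markers, 8 of 9 amacrine and horizontal markers and 4 of 8 endothelial and microglial markers, the last with FPKM sums of 5.05 and 4.45 in the inputs and 10.6 and 8.27 in RIP. Of the lens markers 7 of 8 had at most 3 counts in every library, as had 4 of 8 of the pigment epithelium (*Pmel*, *Rpe65*, *Tyr* and *Tyrp1*, all at 0) and 3 of 6 of red cells, whose FPKM sums were at most 0.202, 1.95 and 0.953 in any library. The FPKM values of the 10 RGC markers summed to 31.8 and 27.4 in the inputs and to 13.7 and 9.83 in RIP, with 1 of the 10 above a log2 fold change of 0. Those of the 10 progenitor markers summed to 200 and 155 in the inputs and to 183 and 130 in RIP, with 0 of the 10 above a log2 fold change of 0. The 8 photoreceptor markers summed to 33.3 and 44.3 in the inputs and 68.9 and 52.5 in RIP, with 5 of 7 tested above 0. The 9 amacrine and horizontal markers summed to 12.9 and 20.6 in the inputs and 16.0 and 11.6 in RIP, with 3 above 0. Of all tested genes 48.1% lay above 0. FPKM sums carry no scaling beyond length and library size, whereas the log2 fold changes also carry TMM scaling between libraries. The part of cell make-up in the Rab results was not tested.

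A single Rab transcript, *Rab8b*, rose in the pulldown and 4, *Rab9*, *Rab8a*, *Rab5c* and *Rab12*, fell, at an adjusted p below 0.05 in edgeR's quasi-likelihood test with Benjamini-Hochberg adjustment over all tested genes. Read against all tested genes, the family did not stand apart in number of calls: 2.22% of the tested members rose and 8.89% fell, where 3.48% and 9.78% of all tested genes did. By a looser rule, a log2 fold change past 1 either way with an unadjusted p below 0.05, 2 members were higher (4.44%, against 9.43% of all tested genes) and 6 were lower (13.3%, against 17.2%). The median log2 fold change of the 45 members was -0.05, and that of all tested genes was also -0.05. Single members lay far from that centre, from -2.57 for *Rab39b*, which stood at -1.02 without input replicate 2, to 2.02 for *Rab8b*. Both RIP libraries lay above both inputs for 11 members (24.4%, against 29.6% of all tested genes) and below both for 15 (33.3%, against 31.3%). The calls depended on having both RIP libraries, in the family as over all tested genes, where few calls remained without 1 of them. The median log2 fold change of the members was -0.08 without RIP replicate 1, against -0.02 for all tested genes. Without RIP replicate 2 it was 0.08, against -0.03. Leaving out input replicate 1 gave 3 rises and 11 falls (6.25% and 22.9% of tested members, against 16.7% and 18.2% of all tested genes), and leaving out input replicate 2 gave 7 and 10 (15.2% and 21.7%, against 18.2% and 19.8%).

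**Figure D1:**
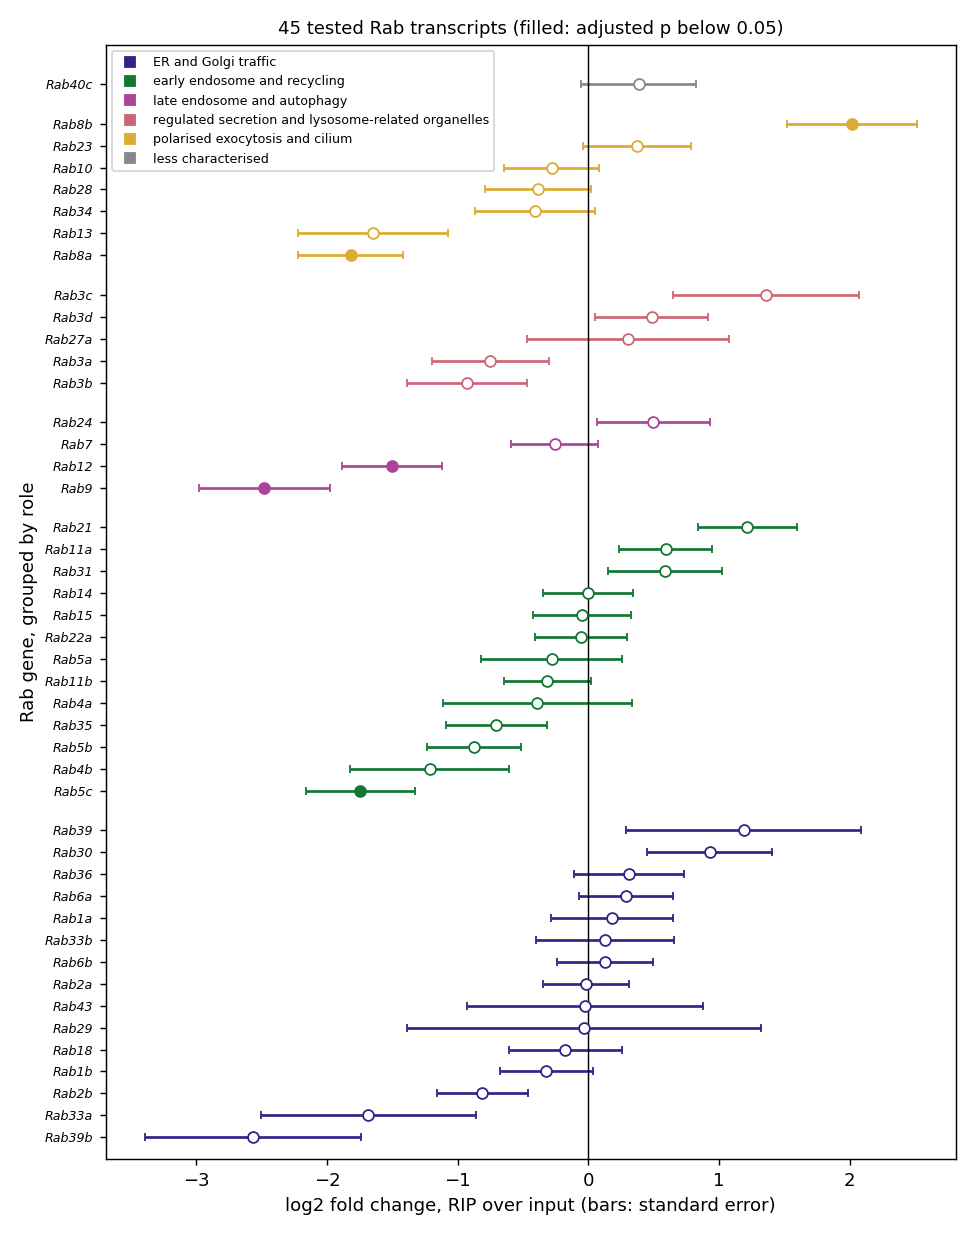
Log2 fold change of RIP over input (horizontal axis) for the 45 tested Rab transcripts, 1 line each, grouped by the role of the protein. Points are edgeR estimates, bars are standard errors and filled points had an adjusted p below 0.05. *Rab8b* at 2.02 lies to the right of the other 44, 27 of the 45 lie below 0, and the filled points on the left are *Rab9*, *Rab8a*, *Rab5c* and *Rab12*.

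*Rab8b* and *Rab8a*, whose products carry vesicles from the trans-Golgi network to the plasma membrane and into the cilium, went opposite ways. *Rab8b* (ENSMUSG00000036943, chr9:66843664-66919687 on the minus strand, GRCm38) had 147 and 435 input counts and 907 and 799 RIP counts, or 4.41 and 12.7 against 35.9 and 33.2 CPM. CPM are counts scaled to the size of the library multiplied by its TMM factor, so they carry TMM scaling. Both RIP libraries lay above both inputs, and the inputs lay further apart than the RIP libraries did. Input libraries averaged 8.54 CPM ± 5.84 (SD, n = 2) and RIP libraries 34.6 CPM ± 1.93 (SD, n = 2). In the edgeR fit this was a 4.05-fold rise (log2 fold change 2.02, SE 0.499, adjusted p = 0.033). *Rab8a* (ENSMUSG00000003037, chr8:72161200-72183904 on the plus strand) had 930 and 524 input counts and 167 and 135 RIP counts, or 27.9 and 15.3 against 6.61 and 5.61 CPM. Here both RIP libraries lay below both inputs. The edgeR fit gave a 3.53-fold fall (log2 fold change -1.82, SE 0.401, adjusted p = 0.022). On the deposited FPKM scale, which is per length, *Rab8a* stood at 4.78 and 2.96 in the inputs and *Rab8b* at 0.744 and 2.43, while in RIP *Rab8a* stood at 1.67 and 1.06 and *Rab8b* at 9.02 and 6.23. *Rab8a* was thus the higher of the pair in both inputs and the lower of the pair in both RIP libraries. With the replicate as a block the changes were 2.20 for *Rab8b* (adjusted p = 0.00059) and -1.76 for *Rab8a* (adjusted p = 0.0045). Scaling by library size alone left *Rab8b* called (2.32, adjusted p = 0.012) but not *Rab8a* (-1.45, adjusted p = 0.053), no filter on low counts left *Rab8a* called (adjusted p = 0.044) but not *Rab8b* (adjusted p = 0.079), limma on log2(FPKM + 0.1) left *Rab8b* called (adjusted p = 0.016) but not *Rab8a* (adjusted p = 0.055), and taking out a trend on gene length left *Rab8a* called (-1.96, adjusted p = 0.024) but not *Rab8b* (1.84, adjusted p = 0.068).

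**Figure D2:**
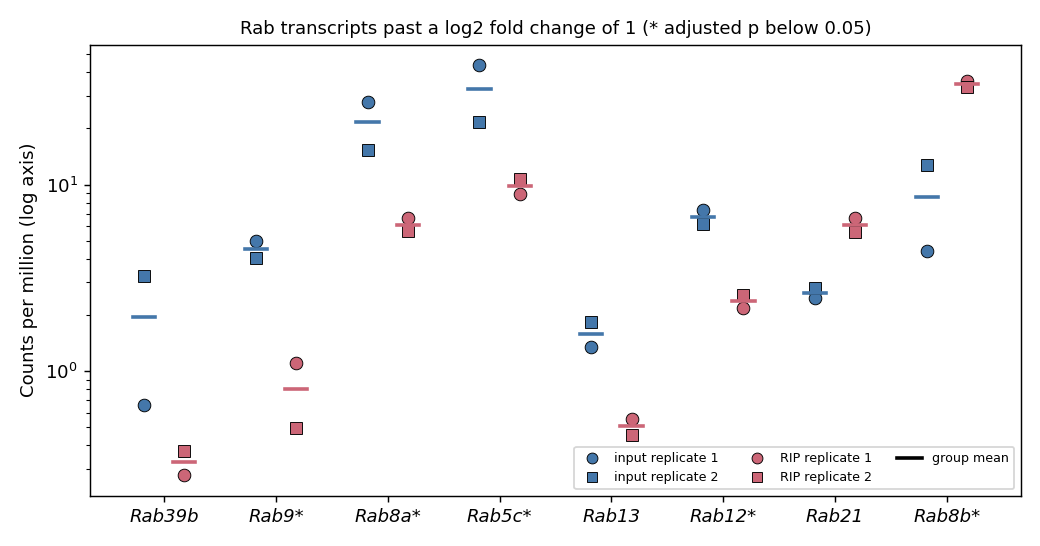
CPM on a log axis for the 8 Rab transcripts past a log2 fold change of 1 in either direction at an unadjusted p below 0.05, ordered by log2 fold change. Blue symbols are inputs, red symbols RIP, circles replicate 1, squares replicate 2 and bars group means. In each of the 8 the RIP symbols lie wholly above or wholly below the input symbols. The 8 were picked on these same libraries, so the separation is no added support. Of all tested genes, 29.6% lay wholly above and 31.3% wholly below. *Rab8b* has the highest RIP values, 35.9 and 33.2 CPM.

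The other members that fell serve the endocytic system. *Rab9* (ENSMUSG00000079316, chrX:166457253-166479867 on the minus strand), which returns mannose 6-phosphate receptors from late endosomes to the trans-Golgi network, had 167 and 138 input counts and 28 and 12 RIP counts. Both RIP libraries were well below both inputs, at 1.11 and 0.499 CPM against 5.01 and 4.02. This was a 5.57-fold fall (log2 fold change -2.48, SE 0.502, adjusted p = 0.016 in edgeR). *Rab12* (ENSMUSG00000023460, chr17:66494512-66519729 on the minus strand), which directs recycling receptors to lysosomes, had 245 and 211 input counts and 55 and 62 RIP counts, or 7.34 and 6.14 against 2.18 and 2.58 CPM. Its groups did not overlap, and the replicates of each group lay close together. The fall was 2.83-fold (log2 fold change -1.50, SE 0.384, adjusted p = 0.037 in edgeR). *Rab5c* (ENSMUSG00000019173, chr11:100715009-100738215 on the minus strand), which drives fusion of early endosomes, had 1457 and 748 input counts and 224 and 257 RIP counts, or 43.7 and 21.8 against 8.87 and 10.7 CPM. The inputs differed from each other, but the lower of them was above both RIP libraries. The fall was 3.35-fold (log2 fold change -1.74, SE 0.420, adjusted p = 0.030 in edgeR). With the trend on gene length taken out the falls were -1.74 for *Rab9*, -1.32 for *Rab12* and -1.17 for *Rab5c*, with adjusted p of 0.063, 0.055 and 0.077 in edgeR. With the trend and the replicate block together *Rab9* (adjusted p = 0.0088) and *Rab12* (adjusted p = 0.037) were called in edgeR and *Rab5c* (adjusted p = 0.068) was not. *Rab9* was called under library size scaling and with no filter on low counts, while *Rab12* (adjusted p = 0.111 and 0.070) and *Rab5c* (adjusted p = 0.054 and 0.057) were not in edgeR under either, and limma on log2(FPKM + 0.1) and log2(FPKM + 1) did not call *Rab12* (adjusted p = 0.078 and 0.069).

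Another 3 members passed the fold change limit at an unadjusted p below 0.05 but missed the adjusted threshold. *Rab21*, which moves integrins through early endosomes, had 82 and 96 input counts and 168 and 134 RIP counts, and was 2.32-fold higher in RIP (log2 fold change 1.22, SE 0.379, adjusted p = 0.069 in edgeR). *Rab13*, which carries cargo to cell junctions, had 45 and 63 against 14 and 11 counts (log2 fold change -1.65, SE 0.573, adjusted p = 0.095 in edgeR). *Rab39b*, a neuronal Rab of the secretory pathway, had 22 and 111 against 7 and 9 counts (log2 fold change -2.57, SE 0.828, adjusted p = 0.077 in edgeR). The groups did not overlap in any of the 3, but the 3 were picked on these same libraries. The inputs of *Rab39b* differed from each other by 2.26 on the log2 scale. Its change was -1.37 on log2(FPKM + 0.1) and -0.43 on log2(FPKM + 1). With the replicate as a block *Rab39b* was called (-2.25, adjusted p = 0.024 in edgeR), and so was *Rab3c*, a Rab of synaptic vesicle release, which had 29 and 204 input counts and 229 and 203 RIP counts. Without the block *Rab3c* had a log2 fold change of 1.36 (SE 0.713, adjusted p = 0.239 in edgeR), and with it 1.86 (adjusted p = 0.0072 in edgeR). Its input replicate 2 lay close to both RIP libraries and its input replicate 1 far below them, so that *Rab3c* stood at 0.56 without input replicate 1 and at 3.32 without input replicate 2. *Rab21* was called in edgeR with library size scaling alone (1.56, adjusted p = 0.049).

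The members were also grouped by role, by hand and from the known site of action of each protein, with earlier results of these data known and with no test between groups. Over all tested genes 3.48% rose and 9.78% fell. With so few tested members in a group, the calls are not read as a trait of any group. Of the 16 members of traffic between endoplasmic reticulum and Golgi, 15 were tested and none was called (0 at adjusted p below 0.05 in edgeR; 1, *Rab39b*, at an unadjusted p below 0.05 with the fold change limit), with a median log2 fold change of -0.02. Of the 15 early endosome and recycling members 13 were tested, 1 fell (*Rab5c*), 4 lay above 0 and 9 below, and the median was -0.28. Of the 6 members of late endosomes and autophagy 4 were tested, 2 fell (*Rab9* and *Rab12*) and the median was -0.88. *Rab7*, the central late endosome and lysosome Rab, belongs to the same group and had a log2 fold change of -0.26 (SE 0.332), and *Rab24* had 0.50 (SE 0.433), so the group did not move as one. Of the 10 members of regulated secretion and lysosome-related organelles 5 were tested, none was called and the values ran from -0.93 to 1.36 with a median of 0.30. All 7 members of polarised exocytosis and cilium traffic were tested, 1 rose (*Rab8b*), 1 fell (*Rab8a*) and the median was -0.39. The other 5 of this group, *Rab10*, *Rab13*, *Rab23*, *Rab28* and *Rab34*, were not called. Of the 5 less characterised members only *Rab40c* could be tested, at 0.39 (SE 0.440).

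The replicates were not equally tight. The median absolute difference between the 2 inputs over the 45 members was 0.664 on the log2 scale, against 0.621 over all tested genes, and between the 2 RIP libraries it was 0.262, against 0.294. The inputs differed by more than 1 on the log2 scale for 13 members (28.9%, against 27.0% of all tested genes) and the RIP libraries for 5 (11.1%, against 11.9%). The sign of the ratio of RIP to input was the same in both replicates for 30 of the 45, and for 9580 of the 13632 tested genes. *Rab8b* had a log2 ratio of 3.02 in replicate 1 and 1.39 in replicate 2, and *Rab8a* had -2.07 and -1.44. *Rab5a* was an instance of the opposite kind. It had 118 and 421 input counts and 172 and 149 RIP counts, with a log2 ratio of 0.94 in replicate 1 and -0.98 in replicate 2. Its log2 fold change was -0.28 (SE 0.543) with all 4 libraries, -0.91 without input replicate 1 and 0.87 without input replicate 2, so that the inputs set its direction. *Rab14*, which works between endosomes and the trans-Golgi network, showed the smallest change of the 45, with 253 and 339 input counts, 222 and 209 RIP counts and a log2 fold change of 0.002 (SE 0.344).

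**Figure D3:**
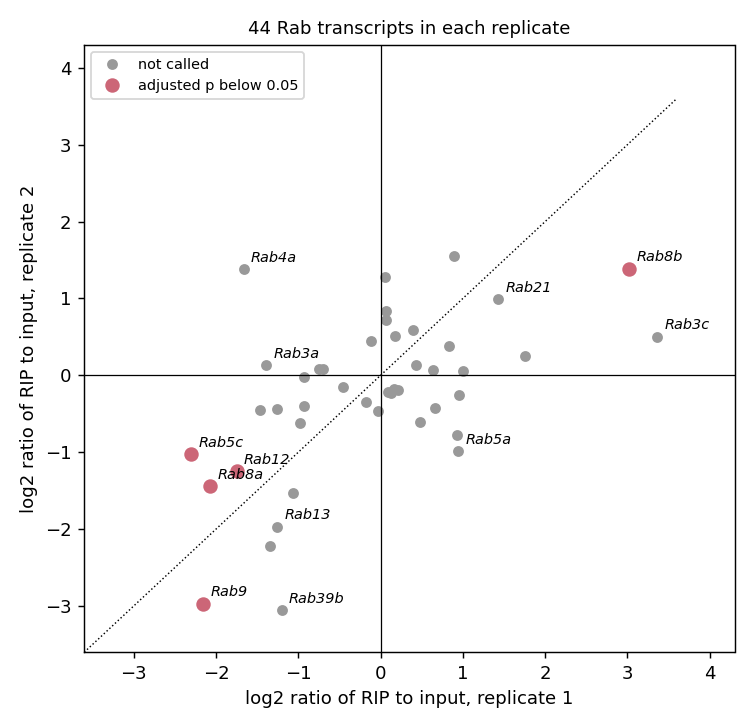
Log2 ratio of RIP to input in replicate 1 (horizontal axis) against replicate 2 (vertical axis), 1 point for each tested Rab transcript except *Rab29*, which had 0 counts in input replicate 1. Red points had an adjusted p below 0.05 and the dotted line marks equal ratios. All 5 called transcripts have the same sign in both replicates, but they were picked on these same replicates. The sign was the same for 30 of the 45 tested members and for 9580 of the 13632 tested genes. *Rab5a* (0.94 and -0.98) and *Rab4a* (-1.66 and 1.38) change sign.

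A ratio of 2 paralogs within 1 library needs no scaling between libraries. Both members were tested in 15 of the 20 listed pairs, and the ratio of their counts, each with 0.5 added, was compared between RIP and input. Levels are not read from these ratios, which are not corrected for length, only their shift. The ratios of the RIP libraries lay above those of the inputs in 5 pairs, below in 4 and overlapped in 6. No share over other gene pairs was worked out, so these counts are not read as a trait of paralogs. Of single tested genes, 29.6% had both RIP libraries above both inputs and 31.3% below. Some genes recur among the pairs, as *Rab3a* and the *Rab5* genes do, so the pairs are not independent. With 2 libraries against 2, the two-sided exact permutation test cannot go below p = 0.33, which each of the 9 pairs without overlap reached (0.56 after Benjamini-Hochberg adjustment over the 15 pairs). With all 4 libraries the largest shift was that of *Rab8a* to *Rab8b*. *Rab8a* had 6.31 and 1.20 times the counts of *Rab8b* in input replicates 1 and 2, while *Rab8b* had 5.42 and 5.90 times the counts of *Rab8a* in RIP replicates 1 and 2. The log2 ratio moved from 2.66 and 0.27 to -2.44 and -2.56, a mean shift of -3.96, or 15.6-fold, and it came to -2.77 with input replicate 1 left out and to -5.16 with input replicate 2 left out. *Rab39* to *Rab39b* followed at 3.36, from -1.24 and -4.63 in the inputs to 0.85 and 0.00 in RIP, on few counts of *Rab39* (9 and 4 against 13 and 9). Its shift was 5.06 without input replicate 1, larger than that of *Rab8a* to *Rab8b* there, and 1.67 without input replicate 2.

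Within the *Rab3* group, *Rab3a* to *Rab3c* shifted by -2.56, from 4.21 and 0.23 to -0.53 and -0.14, and *Rab3a* to *Rab3d* by -1.12, from 2.999 and 2.22 to 1.21 and 1.76 (-0.73 without input replicate 1). The *Rab3a* to *Rab3c* shift rested mainly on input replicate 1: without it the shift was -0.57. *Rab3a* to *Rab3b* overlapped between RIP and input (shift 0.33). Within the *Rab5* group, *Rab5c* lost ground to both of its paralogs, with shifts of 1.64 for *Rab5a* to *Rab5c* and 0.82 for *Rab5b* to *Rab5c*, whereas *Rab5a* to *Rab5b* overlapped. The *Rab5a* to *Rab5c* shift was 0.25 without input replicate 1. The ratio of *Rab33a* to *Rab33b* shifted by -1.88, on 31 and 22 against 9 and 3 counts of *Rab33a* and 34 and 50 against 41 and 26 of *Rab33b*. Of the recycling endosome pair, *Rab11a* (157 and 212 against 212 and 193 counts) gained on *Rab11b* (879 and 743 against 486 and 467 counts) by 0.91, or 0.57 without input replicate 1. *Rab2a* gained on *Rab2b* (334 and 284 against 128 and 129 counts) by 0.79, or 0.50 without input replicate 1, both being Rabs of traffic between endoplasmic reticulum and Golgi. The ratios of *Rab1a* to *Rab1b*, *Rab4a* to *Rab4b*, *Rab6a* to *Rab6b* and *Rab22a* to *Rab31* overlapped.

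**Figure D4:**
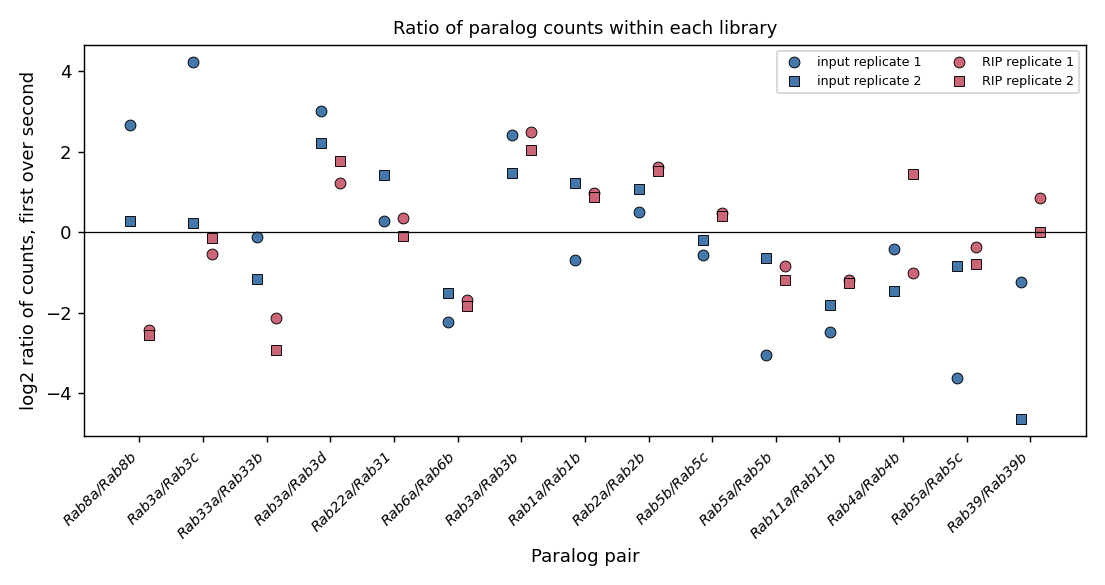
Log2 ratio of the counts of the first to the second paralog (vertical axis) in each library for the 15 testable pairs, ordered by the shift from input to RIP. Blue symbols are inputs, red symbols RIP, circles replicate 1 and squares replicate 2. The RIP symbols of *Rab8a*/*Rab8b*, at -2.44 and -2.56, lie on the other side of 0 from the input symbols, at 2.66 and 0.27.

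Levels across members can be compared only per length, on the FPKM scale. The 6 highest members by the mean of the inputs were *Rab5c* (16.0 and 9.02 FPKM), *Rab7* (6.96 and 7.19), *Rab2a* (5.30 and 7.41), *Rab1b* (6.21 and 5.03), *Rab5b* (5.61 and 4.14) and *Rab3a* (5.91 and 2.81). They span early and late endosomes, the early secretory pathway and, with *Rab3a*, synaptic vesicles. *Rab5c* lay above the others in both inputs, and the ranges of *Rab2a*, *Rab1b*, *Rab5b* and *Rab3a* overlapped, so their order is not fixed. Nor is membership of the 6, since in input replicate 2 *Rab1a* (5.61), *Rab18* (4.78) and *Rab5a* (4.73) lay above *Rab5b* and *Rab3a*. In RIP the same 6 members had 4.81 and 4.31 (*Rab5c*), 9.09 and 5.51 (*Rab7*), 8.77 and 6.38 (*Rab2a*), 5.64 and 5.22 (*Rab1b*), 3.46 and 2.999 (*Rab5b*) and 3.33 and 3.05 FPKM (*Rab3a*). Of these, *Rab5c* was called. FPKM values carry no TMM scaling, so FPKM and log2 fold change can differ in direction between RIP and input. The mean FPKM of *Rab7* was 7.08 in the inputs and 7.30 in RIP, with a log2 fold change of -0.26. *Rab8b* had a mean FPKM in the inputs of 1.59 FPKM ± 1.19 (SD, n = 2), and reached 9.02 and 6.23 FPKM in RIP.

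Members differed in transcript length, base composition and in the letters GGACT, a common form of the sequence in which m6A is placed. The median length of the longest coding transcript was 3081 nt over the 45 tested members, from 1158 to 9456, and 3334 nt over 11917 tested protein-coding genes. Across members, length and log2 fold change had a Spearman correlation of 0.44, beside 0.49 over the 11917 genes, so that longer transcripts tended to lie higher in RIP in the family much as in all genes. Genes are not independent replicates, and both values share the same 4 libraries. The GC content of the transcript and the log2 fold change had a Spearman correlation of -0.33 over members and 0.06 over all, and GC content and the ratio of input replicate 2 to input replicate 1 had a Spearman correlation of -0.50 over members and -0.60 over all. *Rab8a* and *Rab8b* had nearly the same length, 4550 and 4733 nt, and differed in GC content, 49.4% and 40.6%. *Rab9*, *Rab5c* and *Rab12*, which fell, were shorter at 1447, 1967 and 2069 nt. The length trend was taken on a length worked out from the deposited counts and FPKM, not on these transcript lengths. With that trend taken out, 0 members rose at the adjusted threshold in edgeR, against 2.51% of all tested genes. Only *Rab8a* fell (2.22%, against 5.36%), and 2 members were higher and 7 lower at an unadjusted p below 0.05. With the GC trend taken out, a setting chosen after seeing the data, 4 rose (*Rab8b*, *Rab3c*, *Rab21* and *Rab30*, 8.89% against 10.9% of all genes in that fit) and 6 fell (*Rab39b*, *Rab9*, *Rab8a*, *Rab5c*, *Rab12* and *Rab5b*, 13.3% against 13.6%).

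**Figure D5:**
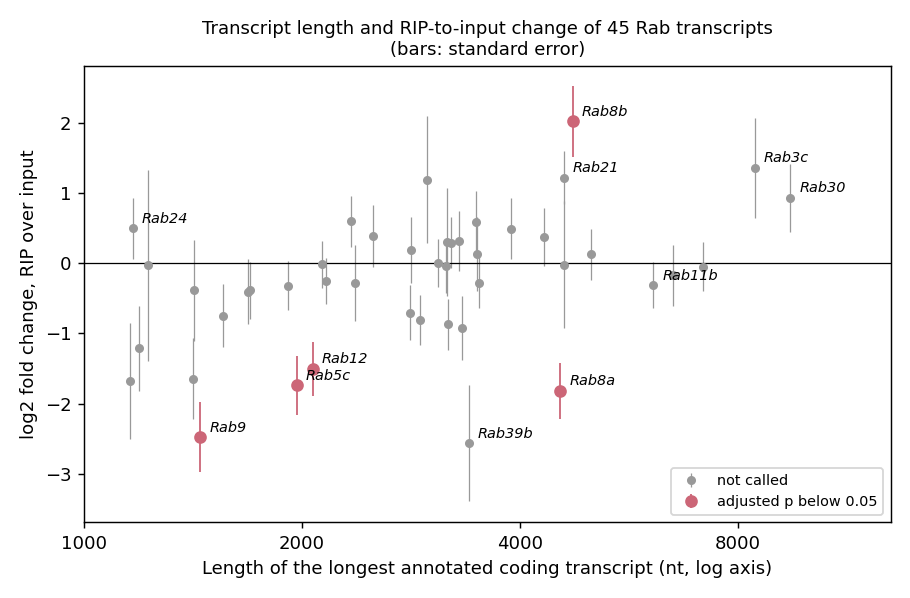
Log2 fold change of RIP over input (vertical axis, bars standard errors) against the length of the longest annotated coding transcript (nt, log axis) for the 45 tested Rab transcripts. Red points had an adjusted p below 0.05. *Rab8a* at 4550 nt and *Rab8b* at 4733 nt lie at nearly the same length and on opposite sides of 0, at -1.82 and 2.02.

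GGACT was searched on the transcript strand of the longest coding transcript, and it occurred at least once in 41 of the 45 members (91.1%), against 93.0% of the 11917 genes. *Rab1a*, *Rab1b*, *Rab9* and *Rab14* held none. The number of copies and the log2 fold change had a Spearman correlation of 0.18 over members and 0.40 over all genes. *Rab8b* held 4 copies, all 4 of them after the stop codon, and *Rab8a*, which fell, held 9. The first copy after the stop codon is given with 10 bases to either side for the called members that hold one there and for *Rab21*, with GGACT in capitals, 5′ to 3′ on the transcript strand.
Rab8b: gcaaaagagcGGACTcctttcttta
Rab8a: acggctgcccGGACTcgattgagaa
Rab5c: gctggagagcGGACTcagcaagagc
Rab12: cctggataggGGACTGGACTtagtc
Rab21: acacactgcgGGACTctccacatgt

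These windows lie in GRCm38 at chr9:66847532-66847556 (*Rab8b*, minus strand), chr8:72180225-72180249 (*Rab8a*, plus strand), chr11:100715667-100715691 (*Rab5c*, minus strand), chr17:66495123-66495147 (*Rab12*, minus strand) and chr10:115288316-115288340 (*Rab21*, minus strand), all in the 3′ UTR. The *Rab12* window holds 2 copies in direct succession. GGACT began 173 bases after the stop codon in *Rab8b*, 98 in *Rab8a*, 366 in *Rab5c*, 553 in *Rab12* and 2442 in *Rab21*. A match gives the letters only, since m6A was not measured in these libraries.

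The regulators of the Rab cycle held more rises than falls. Of 173 listed GEFs, GAPs, factors of prenylation and membrane removal, and effectors 151 were tested, of which 11 rose (7.28%, against 3.48% of all tested genes) and 2 fell (1.32%, against 9.78%) in edgeR, with a median log2 fold change of 0.38 against -0.05 for all tested genes. With the replicate as a block 18 rose (11.9%, against 5.29% of all tested genes) and 4 fell (2.65%, against 11.8%). With the length trend taken out 6 rose (3.97%, against 2.51%) and 0 fell (against 5.36%), and the median was 0.16 against -0.03. With library size scaling 20 rose (13.2%, against 6.20%) and 1 fell (0.662%, against 7.32%). The lists were written by hand with earlier results of these data known, and no test between lists was made. The 46 tested GEFs had 4 rises, 2 falls and a median of 0.61, and the 38 tested GAPs had 4 rises, 0 falls and a median of 0.62. Both RIP libraries lay above both inputs for 27 of the 38 GAPs (71.1%, against 29.6% of all tested genes) and below both for 1. The median length of the longest coding transcript was 4499 nt for GEFs and 4761 nt for GAPs, longer than the 3081 nt of the Rabs, and with the length trend taken out the medians were 0.36 for GEFs and 0.39 for GAPs.

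Among the GEFs, *Madd*, which activates the Rab3 and Rab27 proteins, had 321 and 239 input counts and 841 and 787 RIP counts, a 3.98-fold rise (log2 fold change 1.99, SE 0.354, adjusted p = 0.0093 in edgeR). *Mon1a*, part of the complex that activates Rab7, rose from 22 and 9 to 50 and 55 counts (log2 fold change 2.20, SE 0.609, adjusted p = 0.047 in edgeR), and *Hps4*, part of the complex that activates Rab32 and Rab38, from 38 and 27 to 95 and 71 (1.80, SE 0.454, adjusted p = 0.035 in edgeR). In contrast, *Trappc1* and *Trappc3*, which encode core subunits of the TRAPP complex that activates Rab1, fell. *Trappc1* went from 339 and 314 counts in the inputs to 42 and 51 in RIP (log2 fold change -2.35, SE 0.387, adjusted p = 0.0067 in edgeR) and *Trappc3* from 227 and 241 to 75 and 53 (-1.42, SE 0.386, adjusted p = 0.045 in edgeR). *Trappc1* and *Trappc3* have short transcripts, of 759 and 1336 nt, and *Madd* a long one of 5990 nt. With the length trend taken out 3 GEFs rose and 0 fell.

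Of the GAPs, *Tbc1d22b* (496 and 214 against 989 and 827 counts), *Tbc1d13* (285 and 177 against 526 and 627) and *Sgsm2* (36 and 50 against 109 and 95) had the largest rises, at log2 fold changes of 1.80, 1.77 and 1.70 with adjusted p of 0.035, 0.021 and 0.032 in edgeR. All 3 encode TBC-domain proteins. The input and RIP libraries did not overlap in any of them, but the 3 were picked as the largest rises in these same libraries. The 9 genes of prenylation and membrane removal had a median of -0.54, with 6 below 0 and both RIP libraries below both inputs for 4 (44.4%, against 31.3% of all tested genes). Among them *Rabggtb*, the catalytic subunit of the enzyme that attaches the lipid to the cysteines shown above, rose (74 and 103 against 204 and 157 counts, log2 fold change 1.48, adjusted p = 0.041 in edgeR). Of 58 tested effectors 1, the Rab11 partner *Rab11fip3*, rose (167 and 107 against 304 and 268 counts, log2 fold change 1.51, adjusted p = 0.035 in edgeR) and 0 fell. Their median was 0.16, and -0.08 with the length trend taken out.

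The other small GTPases are given beside the Rabs without a test between families. Of 70 tested members of other small GTPase families 5 rose (7.14%, against 3.48% of all tested genes) and 6 fell (8.57%, against 9.78%) in edgeR, with a median of -0.18 against -0.05. Within the Arf and Arl family, *Arf3* rose (641 and 524 against 2359 and 2105 counts, log2 fold change 2.39, adjusted p = 0.0041 in edgeR), while *Arf4* (-2.18), *Arf5* (-2.30) and the ciliary *Arl3* (1919 and 1289 against 124 and 76 counts, -3.56, adjusted p = 0.0018 in edgeR) fell. Among the Ras relatives *Diras2* (2.02), *Nras* (1.95) and *Rap2a* (1.60) rose, and *Rras2* (-2.12) and *Rala* (-1.52) fell.

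Some members could not be read. *Rab17*, *Rab38* and *Rab44* had 0 counts in all 4 libraries, and a count of 0 allows up to 3 counts in a library, for counting error only. Another 11 members had too few counts to be tested. Of these, *Rab9b*, the paralog of *Rab9*, had 8 and 30 input counts and 5 and 3 RIP counts, *Rab27b* had 3 and 11 against 13 and 8, and *Rab40b* had 0 and 5 against 0 and 11. *Rab7b*, *Rab19*, *Rab20*, *Rab25*, *Rab26*, *Rab32*, *Rab37* and *Rab42* had at most 6 counts in any library. The strand setting of the counting was not given in the sources used here. *Rab2b* overlaps *Tox4* on the opposite strand, whose counts came to 169% of its own, *Rab39* lies over the pseudogene *Rps6-ps3* on the same strand (43 counts against 35), and *Rab3a* overlaps *Mpv17l2* on the opposite strand (11.1%), so that reads may have been assigned to either gene. *Rab11b* has a pseudogene copy, *Rab11b-ps2*, to which 75 and 62 input counts and 33 and 41 RIP counts were assigned. None of the 5 called members overlaps another annotated gene of the table.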

How the data were processed

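Input and anti-YTHDF2 RIP RNA of P0 mouse retina was sequenced in 2 replicates each. The authors deposited counts per gene, neither normalized nor pooled, and FPKM values, scaled by the authors for length and library size. The submitters' processing notes name STAR 2.5, HTSeq and GRCm38; the annotation used for counting is not given in the sources used here. Nothing shows that the replicates came from separate litters, so p-values measure the spread between these libraries.

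Genes passing filterByExpr (minimum count 10, minimum total 15) were TMM-scaled and fitted with edgeR 4.0.16 in R 4.3.3 (glmQLFit, glmQLFTest), with Benjamini-Hochberg adjustment over 13632 genes. "Rose" and "fell" mean an adjusted p below 0.05. The SE is the log2 fold change divided by the root of F. Coordinates, printed lengths and sequences came from the longest protein-coding transcript of each gene in GENCODE M21 (GRCm38). The length trends used another length, worked out for each gene from the deposited counts and FPKM values. The 2 lengths can differ widely, as for *Rab14* (3081 nt for the transcript and 14740 nt from FPKM). The fits were also run on simulated counts with the same spread in both groups and no length or GC trend. These simulated counts lack features of the real libraries, so nothing is read from them here.

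The design text gives each replicate an input and a pulldown, so equal numbers mark a shared replicate. Deviations of same-numbered libraries had a Pearson r of -0.024 over tested genes. The main model had no replicate block.

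Values in every library are given for called members, members past the fold change limit alone, the 6 highest in FPKM, pairs without overlap and the smallest change, and for other genes up to 3 calls per list and direction, of which some are not reported here. *Rab5a*, *Rab9b*, *Rab27b* and *Rab40b* were described further after their values were seen. The members and lists were chosen with earlier results of these data known. Alternatives were DESeq2 1.42.0, other scalings and filters, the block, length trends, limma 3.58.1 on FPKM with 0.1 or 1 added, and each library left out.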

Additional observations from a re-analysis of the deposited data

How the results depend on the processing

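The log2 fold changes of *Rab8b*, *Rab9*, *Rab8a*, *Rab5c* and *Rab12* kept their direction under every alternative run. Their values with 1 library left out ran from 1.45 to 2.96, -3.06 to -1.93, -2.19 to -1.32, -2.17 to -1.16 and -1.63 to -1.28. Of the 23 Rab transcripts described singly, 7 changed sign under some alternative (*Rab1b*, *Rab2a*, *Rab5a*, *Rab7*, *Rab11b*, *Rab14* and *Rab33b*), none of them called as reported. *Rab5a* alone of these was called on both sides of 0, at 0.87 without input replicate 2 and -0.91 without input replicate 1. Among Rab transcripts the replicate block changed the calls of *Rab3c* and *Rab39b* and no other. The number of Rab transcripts that rose, 1 as reported, was 2 with library size scaling, 0 with no filter on low counts, 2 with the replicate block, 0 with the length trend taken out, 2 with both, 4 with the GC trend taken out and 3 with the GC trend and the block, and from 0 to 7 with 1 library left out. The number that fell, 4 as reported, was 1 with library size scaling, 2 with no filter, 1 with the length trend taken out and 2 on log2(FPKM + 0.1), and from 0 to 11 with 1 library left out. By fold change and unadjusted p, the higher transcripts, 2 as reported, were 4 with library size scaling, with the length trend and block, and with the GC trend with or without the block, 1 on log2(FPKM + 1), and from 1 to 6 with 1 library left out, and the lower ones, 6 as reported, were 3 on log2(FPKM + 1) and from 3 to 9. The median of the members was 0.29 with library size scaling and 0.19 on log2(FPKM + 0.1). Over all tested genes, library size scaling moved the median from -0.05 to 0.27, DESeq2 to -0.24 (-0.06 over genes with an adjusted p), no filter to -0.16 and log2(FPKM + 0.1) to 0.15, and library size scaling turned 474 rises and 1333 falls into 845 and 998. The median absolute shift of the paralog pairs was 0.91 with the block and ran from 0.62 to 1.51 with 1 library left out.

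Among Rab regulators and effectors the rises, 11 as reported, were 20 with library size scaling, 19 with DESeq2, 18 with the block, 6 with the length trend, 36 with the GC trend and 31 with the GC trend and block, and from 0 to 53 with 1 library left out. The falls, 2 as reported, were 1 with library size scaling, no filter, the length trend with the block, log2(FPKM + 0.1) and log2(FPKM + 1), 4 with the block, 0 with the length trend, 5 with the GC trend and 6 with the GC trend and block, and from 0 to 15. Among the other small GTPases the rises, 5 as reported, were 8 with the length trend and block and 9 with the GC trend with or without the block, and from 0 to 18. The falls, 6 as reported, were 3 with library size scaling, the length trend, log2(FPKM + 0.1) and log2(FPKM + 1), 2 with no filter, and from 0 to 20. Scaling, filtering and trend settings change the test statistics of all genes, and the cause of single changes was not tested. Over all tested genes 3.48% rose and 9.78% fell as reported. Those shares were 6.20% and 7.32% with library size scaling, 4.94% and 10.3% with DESeq2, and 1.25% and 3.81% with no filter. They were 5.29% and 11.8% with the block, 2.51% and 5.36% with the length trend, and 5.16% and 8.63% with both. With the GC trend they were 10.9% and 13.6%, and 9.89% and 12.9% with the block added. On log2(FPKM + 0.1) they were 3.84% and 9.13%, and on log2(FPKM + 1) 4.15% and 9.19%. The GC trends were added after seeing the data. With 2 libraries a group, and 1 where a library was left out, the spread was estimated across all genes, and a group of 1 was assumed to vary like the other. The low counts of the 14 untested members limit what can be read of them.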
